A study of Mus musculus with 15 samples.

Results

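The genes described here encode the proteins of the cytosolic ribosome, which were followed by their mRNA levels in mouse kidney. They were found by symbol: rows of the deposited count table named Rps or Rpl with a number, and with no suffix letter other than a, x, y or l. Rpsa, Rplp0, Rplp1 and Rplp2 were added, and pseudogene symbols and the S6 kinases were left out. Symbols with longer suffixes, such as Rpl36al, Rps27rt and Rpl37rt, were not taken. The rule gave 84 of the 24421 gene symbols, 33 of the small (40S) subunit and 51 of the large (60S) subunit. All 84 matched a gene of GENCODE M21 on GRCm38, and they lay on 19 chromosomes, with 14 on chromosome 7. GENCODE types Rps4l, kept by its symbol, as a transcribed processed pseudogene. The rule itself used no measured level, but it was set with earlier results of these data known.

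The kidneys came from wild-type mice at day 14. The groups were UUO_Si (n = 6), with UUO operation and a Si-based diet, UUO (n = 6), with UUO operation and a normal diet, and sham (n = 3), with sham operation and a normal diet. UUO stands for unilateral ureteral obstruction, a model in which blocked urine outflow leads to loss of tubule cells and a gain of fibroblasts and leukocytes. The labels do not say more of the animals, so p-values measure the spread between these samples, which may be technical in part.

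A ribosome is made of ribosomal RNA and of a set of proteins that are needed in nearly equal numbers. Most of these proteins are encoded by a single active gene, and many of the genes carry small nucleolar RNAs (snoRNAs) in their introns. In vertebrates their mRNAs commonly begin with a C followed by a run of C and T bases, the 5′ terminal oligopyrimidine (TOP) motif, through which mTOR signalling and LARP1 control how well the mRNAs are translated and kept. Levels are given as CPM, the counts of a gene scaled to 1000000 counts per library after TMM scaling. A change was called at a Benjamini-Hochberg adjusted p of 0.05 in edgeR's quasi-likelihood test over 16752 genes. Changes are log2 fold changes ± their standard error (SE).

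The start sites show how members differ in that motif. Of the 84 members, 63 had a RefSeq start window on GRCm38.p6. In 33.3% of these an unbroken run of at least 8 C or T bases lay within 5 bases of the annotated start, against 9.39% of 15586 windows of protein-coding genes. The start base was a C in 33.3% of member windows and in 14.1% of all windows. Each sequence below holds 15 bases before the start and 15 bases from it, read 5′ to 3′ on the gene's strand, with the longest C and T run near the start in capitals. Rpl35 (chr2:39005117-39005146, minus strand), Rpl15 (chr14:18270972-18271001, minus strand) and Rps27 (chr3:90213634-90213663, minus strand) had long runs and rose in obstructed kidneys. Rpl27a (chr7:109519180-109519209, plus strand) had a long run and was not called. Rpl22 (chr4:152325711-152325740, plus strand) had the largest rise and hardly a run, and Rps15 (chr10:80292416-80292445, plus strand) had a short run and was not called.
Rpl35: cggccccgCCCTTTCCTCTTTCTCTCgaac
Rpl15: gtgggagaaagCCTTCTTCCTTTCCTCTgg
Rps27: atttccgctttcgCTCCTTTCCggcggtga
Rpl27a: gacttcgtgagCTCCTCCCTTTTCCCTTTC
Rpl22: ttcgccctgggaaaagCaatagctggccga
Rps15: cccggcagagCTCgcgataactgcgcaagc

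The median log2 fold change of UUO over sham was 0.76 over the 21 tested members with a run of at least 8 bases and 0.79 over the 40 tested members with a shorter one. Members with a long run were found both among those that rose and among those that were not called. The annotated start can differ from the start used in kidney.

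Around the start, the letters CGGAAG, the core of sites bound by ETS-family factors, were more frequent among the members than among all protein-coding genes. They were found on either strand in 66.7% of the 63 member windows, which run from 250 bases before to 50 after the start, and in 22.3% of all 15586 windows. The letters AAGATGG, a YY1-like motif, were in 14.3% of member windows and 6.55% of all windows. CACGTG, the E-box, was in 7.94% and 8.10%, and TATAAA, the TATA box, was in 9.52% and 13.0%, each read on both strands and with matches of different motifs allowed to overlap. Rps21 (chr2:180257259-180257378, plus strand), which rose, and Rps6 (chr4:86857368-86857487, minus strand), the S6 kinase substrate, held 3 copies of the ETS core each, and the 120 bases before their start are shown. Capitals mark CGGAAG and its reverse complement CTTCCG.
Rps21: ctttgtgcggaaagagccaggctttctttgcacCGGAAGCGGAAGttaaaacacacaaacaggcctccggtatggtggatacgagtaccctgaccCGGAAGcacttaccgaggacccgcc
Rps6: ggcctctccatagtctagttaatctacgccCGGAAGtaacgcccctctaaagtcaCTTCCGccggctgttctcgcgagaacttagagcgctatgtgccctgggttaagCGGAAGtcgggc

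The median log2 fold change of UUO over sham was 0.68 over the 41 tested members with the ETS core and 0.81 over the 20 without it. A match is a description of these letters and not a bound site.

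Libraries held 7754724 to 11465936 counts in UUO_Si, 11151023 to 15422613 in UUO and 5526642 to 8308121 in sham. Several libraries stood apart. In sham 3, UUO 5, UUO 6 and UUO_Si 6, between 53.1% and 86.8% of 1125 olfactory receptor genes had counts, against 5.24% to 8.62% in the other libraries. In UUO 4, UUO 5, UUO 6 and UUO_Si 6 the nuclear RNA Malat1 took 1.37% to 3.49% of counts, against 4.796% to 7.88% in the other libraries. The sample codes in the labels begin with RM1 in sham, RM3 or RM6 in UUO and RM4 or RM7 in UUO_Si, where RM6 marks UUO 5 and UUO 6 and RM7 marks UUO_Si 6. Their meaning is unknown, and they cannot be told apart from the groups.

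The share of all counts in the ribosomal protein genes was higher in every obstructed library than in every sham library. In UUO_Si it was 1.71%, 1.63%, 1.48%, 1.42%, 1.37% and 2.59% in replicates 1 to 6. In UUO it was 1.56%, 1.31%, 1.52%, 2.06%, 2.40% and 2.47%, and in sham it was 0.958%, 0.983% and 1.09%. The means were 1.70% ± 0.453 in UUO_Si, 1.89% ± 0.494 in UUO and 1.01% ± 0.0702 in sham (SD, n = 6, 6 and 3). The 4 obstructed libraries with the highest share were the 4 with the lowest Malat1 share. The part of that difference in the results below was not tested, and the counts of members called are given with and without these libraries.

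**Figure D1:**
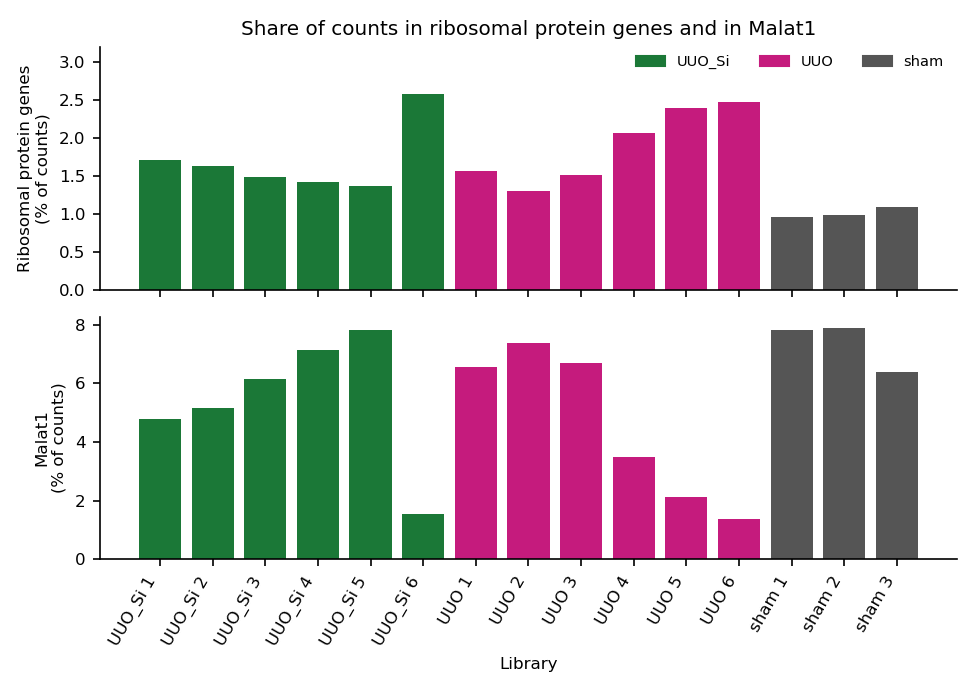
Share of all counts in the 84 ribosomal protein genes (upper bars, %) and in Malat1 (lower bars, %) in each of the 15 libraries, coloured by group. The ribosomal protein share reaches 2.06% to 2.59% in UUO_Si 6 and UUO 4 to 6, where Malat1 is lowest, and 0.958% to 1.09% in the sham libraries.

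Both subunits contributed. The ratio of 40S to 60S counts was 0.576 ± 0.0160 in UUO_Si, 0.566 ± 0.0206 in UUO and 0.541 ± 0.00326 in sham (SD, n = 6, 6 and 3). In UUO 5, UUO 6 and UUO_Si 6 the ratio was 0.545, 0.543 and 0.545, within or near the sham values of 0.538 to 0.544.

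The first comparison, UUO against sham on normal diet, asks what obstruction did to these mRNAs. Of 82 tested members, 51 rose and 0 fell, against a background of 27.5% of all tested genes called higher and 26.4% called lower. The rises covered 24 of 33 members of the 40S subunit and 27 of 49 of the 60S subunit. The median log2 fold change was 0.76 over the members, 0.86 over the 40S and 0.71 over the 60S members, and -0.04 over all tested genes. In 46 members every UUO library lay above every sham library, against 24.6% of all tested genes. In 1 member, Rps15, every UUO library lay below every sham library, against 22.3% of all tested genes. Since the kidneys were measured in bulk, a change in the cells of a type and a change in RNA per cell cannot be told apart.

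**Figure D2:**
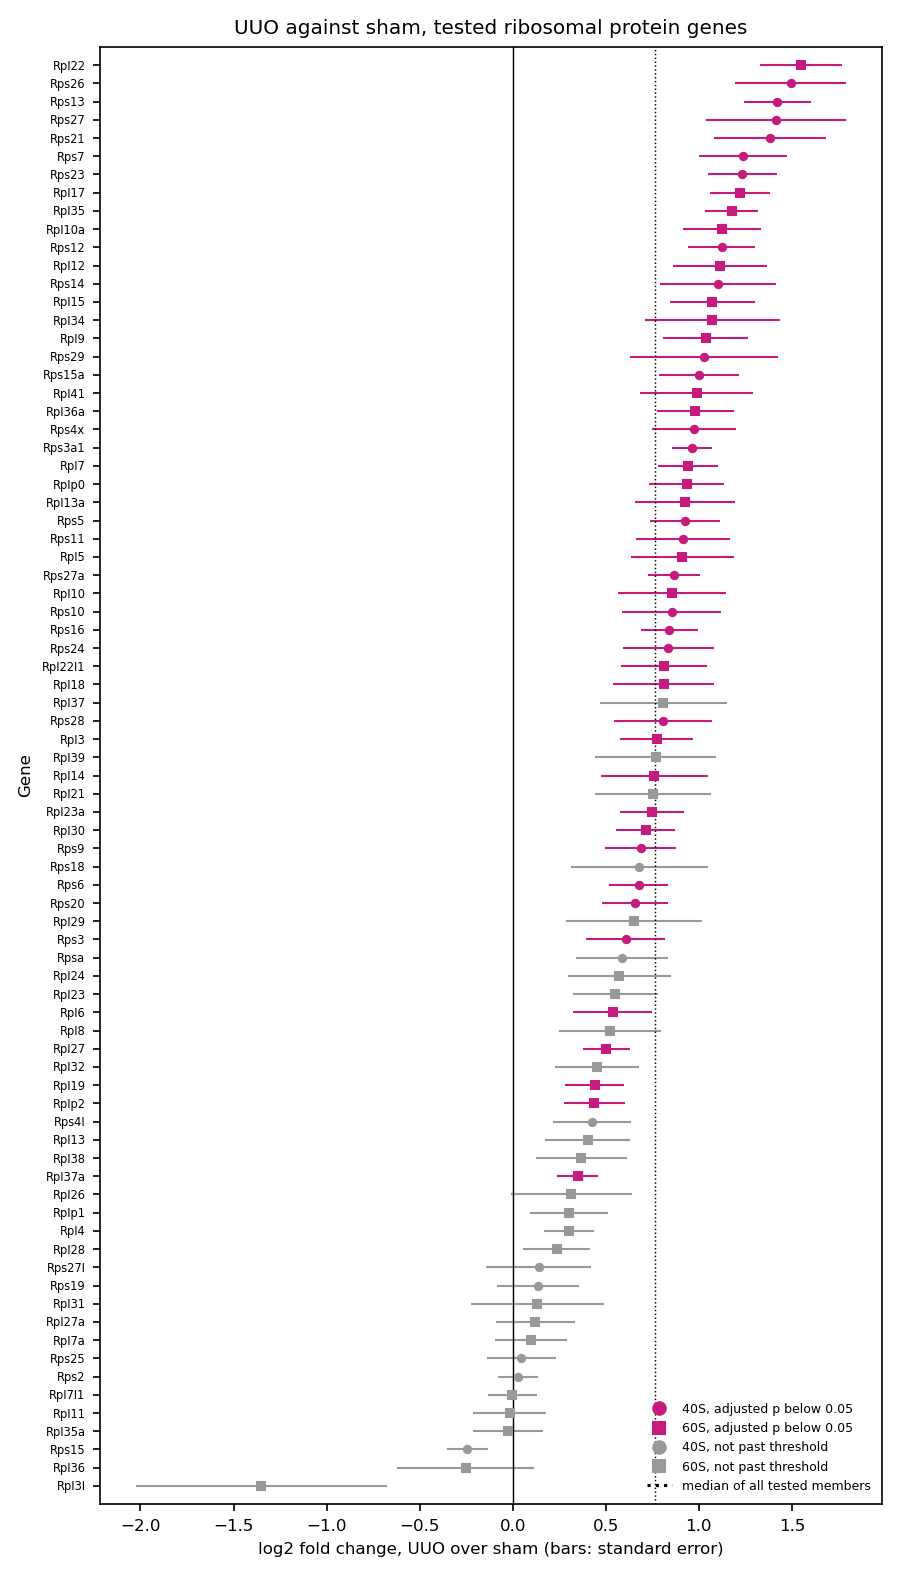
Log2 fold change of UUO over sham for 79 of the 82 tested ribosomal protein genes, with standard errors as bars. Circles are 40S and squares 60S members, coloured where the adjusted p of edgeR's test was below 0.05, and the dotted line is the median of 0.76 over all 82.

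The largest rise was that of Rpl22, an RNA-binding protein of the large subunit (GRCm38 chr4:152325742-152334071, plus strand). Its level was 158 CPM at the lowest, 233 at the median and 294 at the highest in UUO, against 73.7, 90.6 and 73.7 CPM in sham. No UUO library overlapped the sham libraries. The log2 fold change was 1.55 ± 0.22 (SE; adjusted p = 1.44e-05, edgeR).

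Among 40S members, Rps26, which lines the path where mRNA leaves the ribosome and is mutated in some people with Diamond-Blackfan anaemia, had 116, 196 and 284 CPM in UUO (lowest, median and highest) and 71.5, 67.4 and 72.6 CPM in sham. Its gene lies at chr10:128624534-128626747 on the minus strand. The log2 fold change was 1.49 ± 0.30 (adjusted p = 0.0004173, edgeR), and the groups did not overlap.

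Rps13, a 40S protein, had 58.3, 71.2 and 92.1 CPM in UUO (lowest, median and highest), against 27.4, 24.6 and 29.9 CPM in sham. Each UUO library was at least at 58.3 CPM and each sham library at most at 29.9 CPM. The log2 fold change was 1.42 ± 0.18 (adjusted p = 3.493e-06, edgeR). Rps27, a zinc finger protein of the 40S subunit, had 21.5, 39.7 and 59.1 CPM in UUO and 15.5, 12.8 and 16.5 CPM in sham, with a log2 fold change of 1.42 ± 0.38 (adjusted p = 0.004276, edgeR), and of 0.74 ± 0.17 without the 4 low-Malat1 libraries. Its retrogene Rps27rt, which is no member, changed by 1.45 ± 0.38 (adjusted p = 0.004125, edgeR), and reads could have been split between the copies.

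The other large rises were of Rps21, Rps7, Rps23, Rpl17, Rpl35 and Rpl10a, whose UUO and sham libraries did not overlap either. Rps21 changed by 1.38 ± 0.30. Rps7, whose human counterpart binds MDM2, the regulator of p53, changed by 1.24 ± 0.24. Rps23, a protein near the decoding centre, changed by 1.23 ± 0.19. Rpl17 and Rpl35, which lie near the exit of the nascent chain tunnel, changed by 1.22 ± 0.16 and 1.18 ± 0.14. Rpl10a, part of the L1 stalk, changed by 1.13 ± 0.21. Their adjusted p-values ran from 2.181e-06 for Rpl35 to 0.0008747 for Rps21 (edgeR). Rps3a1 had the smallest adjusted p of all members, 9.798e-07, with 313, 367 and 390 CPM in UUO (lowest, median and highest) and 176, 181 and 199 CPM in sham. Its UUO libraries were close to each other, including those low in Malat1, and its log2 fold change was 0.96 ± 0.11.

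The remaining rises were spread over both subunits. In the 40S subunit Rps14, which helps to form the platform, had 74.5, 112 and 167 CPM in UUO (lowest, median and highest) and 53.2 to 55.5 CPM in sham, with a log2 fold change of 1.10 ± 0.31 (adjusted p = 0.0064, edgeR). Rps6, the S6 kinase substrate, had 338, 434 and 524 CPM in UUO and 264 to 290 CPM in sham, with a log2 fold change of 0.68 ± 0.16 (adjusted p = 0.001591, edgeR). Rps24 rose by 0.84 ± 0.25 (adjusted p = 0.00829) and Rps3, a protein at the mRNA entry that also has a role in DNA repair, by 0.61 ± 0.21 (adjusted p = 0.0235, edgeR), whereas Rps19, the gene most often mutated in Diamond-Blackfan anaemia, was at 136 ± 34.3 CPM in UUO and 124 ± 9.90 CPM in sham and did not pass (adjusted p = 0.6245).

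In the 60S subunit Rpl15, whose sequence is given above, had 136, 165 and 243 CPM in UUO (lowest, median and highest) and 78.5 to 93.2 CPM in sham, with a log2 fold change of 1.07 ± 0.23 (adjusted p = 0.0007098, edgeR). Rpl13a, which in people can leave the ribosome and silence inflammatory mRNAs, had 264, 399 and 563 CPM in UUO and 181 to 234 CPM in sham and rose by 0.93 ± 0.27 (adjusted p = 0.00812, edgeR). The smallest called change was that of Rpl37a, at 0.35 ± 0.11 (adjusted p = 0.0127, edgeR). Rpl27a, with the longest pyrimidine run of the sequences shown, did not pass (0.12 ± 0.21, adjusted p = 0.6491), and Rpl26, whose human counterpart binds the p53 mRNA, was at 225 ± 87.2 CPM in UUO and 181 ± 9.85 CPM in sham and did not pass.

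Of the 5S particle Rpl5 was called and Rpl11 was not, a difference that was not itself tested. Rpl5 and Rpl11 bind 5S rRNA together before it joins the large subunit, and the free particle can bind MDM2. Rpl5 (chr5:107900502-107909005, plus strand) had 366, 546 and 785 CPM in UUO (lowest, median and highest) and 299, 308 and 311 CPM in sham, and it rose with a log2 fold change of 0.91 ± 0.28 (adjusted p = 0.01056, edgeR). Rpl11 (chr4:136028265-136053428, minus strand) had 110, 155 and 200 CPM in UUO and 173, 144 and 156 CPM in sham. The groups overlapped, and its log2 fold change was -0.02 ± 0.19 (adjusted p = 0.9475, edgeR).

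In the stalk, which recruits translation factors, Rplp0 rose by 0.93 ± 0.20 (adjusted p = 0.0008888) and Rplp2 by 0.44 ± 0.17 (adjusted p = 0.03323), while Rplp1 did not pass (0.30 ± 0.21, adjusted p = 0.24, edgeR). Rplp0 had 458, 589 and 791 CPM in UUO (lowest, median and highest), against 321, 334 and 314 CPM in sham. The call of Rplp2 was lost in 9 alternative fits, among them each fit without 1 sham library and that without the low-Malat1 libraries, with adjusted p-values from 0.0539 to 0.1755.

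Members that did not rise included Rps15, Rpl36, Rpl35a, Rps2 and Rpl7l1. Rps15, at the head of the 40S subunit, had 125, 146 and 150 CPM in UUO (lowest, median and highest), against 185, 159 and 158 CPM in sham. All 6 UUO libraries lay below the 3 sham libraries, and the log2 fold change of -0.24 ± 0.11 did not pass (adjusted p = 0.0724, edgeR). Rpl36 had 52.2, 95.7 and 153 CPM in UUO and 125, 115 and 120 CPM in sham. Its UUO libraries lay on both sides of the sham libraries, with a log2 fold change of -0.25 ± 0.37 (adjusted p = 0.5856, edgeR). Rps2 was at 321 ± 20.3 CPM in UUO and 315 ± 15.8 CPM in sham (SD, n = 6 and 3).

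**Figure D3:**
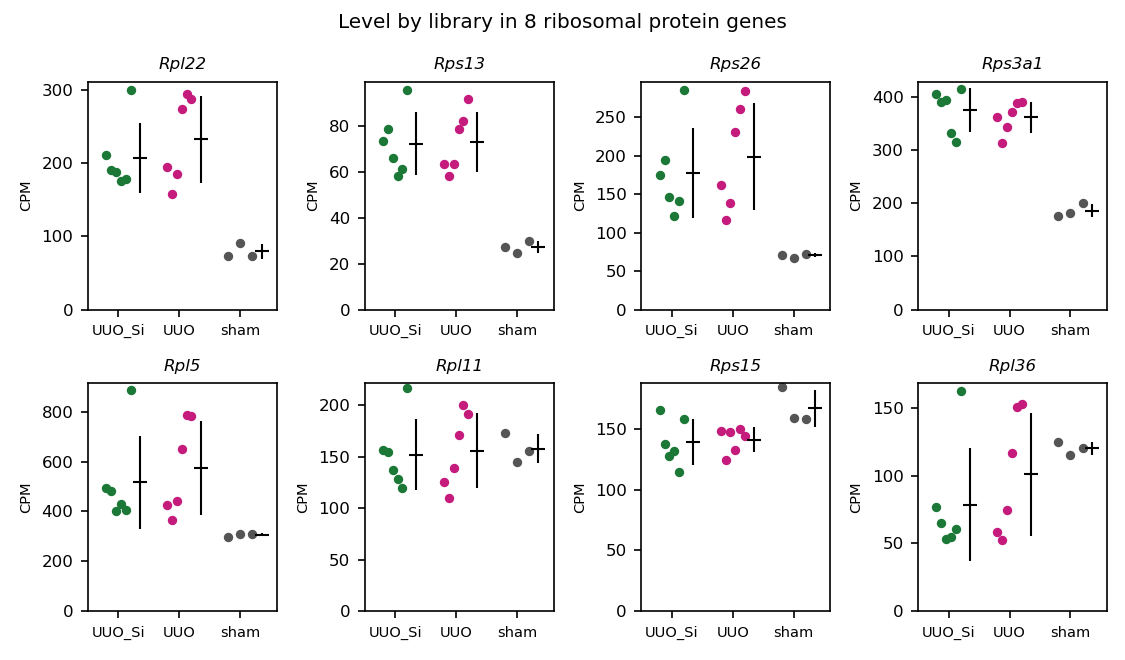
CPM by library in 8 ribosomal protein genes, with the mean and SD of each group beside the points (UUO_Si n = 6, UUO n = 6, sham n = 3). Rpl22, Rps13, Rps26, Rps3a1 and Rpl5 lie above sham in all obstructed libraries, whereas Rpl11 and Rpl36 overlap sham and Rps15 lies below sham in UUO.

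Libraries of the UUO group differed in how far they stood above sham. Of 82 members, 64, 47, 65, 74, 79 and 78 lay above all sham libraries in UUO replicates 1 to 6. UUO 5 held the highest level of its group in 47 members and UUO 6 in 32, and UUO 2 held the lowest in 72. The median SD of the members' log2 levels was 0.372 in UUO and 0.0942 in sham, against 0.246 and 0.236 over all tested genes. The summed fibroblast markers were 5183, 5562 and 5505 CPM in UUO 1 to 3 and 9732, 10087 and 8972 CPM in UUO 4 to 6, while UUO_Si 6, at 5577 CPM, was within the 4326 to 6312 CPM of the other UUO_Si libraries. Their part in the spread was not tested.

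Without UUO 4 to 6 and UUO_Si 6, an alternative added after seeing the data, 47 members rose in UUO against sham, 46 of them among the 51. The median log2 fold change was then 0.35, and 5 members were called lower. Among these were Rpl36 (-0.96 ± 0.14, adjusted p = 2.4147e-05), Rpl31 (-0.53 ± 0.16, adjusted p = 0.010763), Rpl11 (-0.34 ± 0.12, adjusted p = 0.023741) and Rpl35a (-0.30 ± 0.12, adjusted p = 0.048612), all by edgeR. In the same fit the log2 fold change was 1.17 ± 0.11 for Rpl22, 1.18 ± 0.13 for Rps13, 1.03 ± 0.12 for Rpl17 and 1.01 ± 0.12 for Rpl35. It was 0.98 ± 0.16 for Rps26, 0.97 ± 0.12 for Rps23, 0.86 ± 0.12 for Rps7, 0.84 ± 0.13 for Rps21, 0.79 ± 0.11 for Rpl10a and 0.74 ± 0.17 for Rps27, and all 10 were called. The rises then covered 24 of 33 members of the 40S and 23 of 49 of the 60S subunit, and 27.5% of all tested genes were called higher and 25.3% lower. In 47 members UUO 1 to 3 lay above all sham libraries, against 30.9% of all tested genes, and in 7 they lay below, against 27.5%. Without the 4 libraries with counts in most olfactory receptor genes, 43 members rose and 1, Rps15, was called lower, with a median of 0.54. In that fit 4904 of 16294 tested genes were called higher and 4450 lower.

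**Figure D4:**
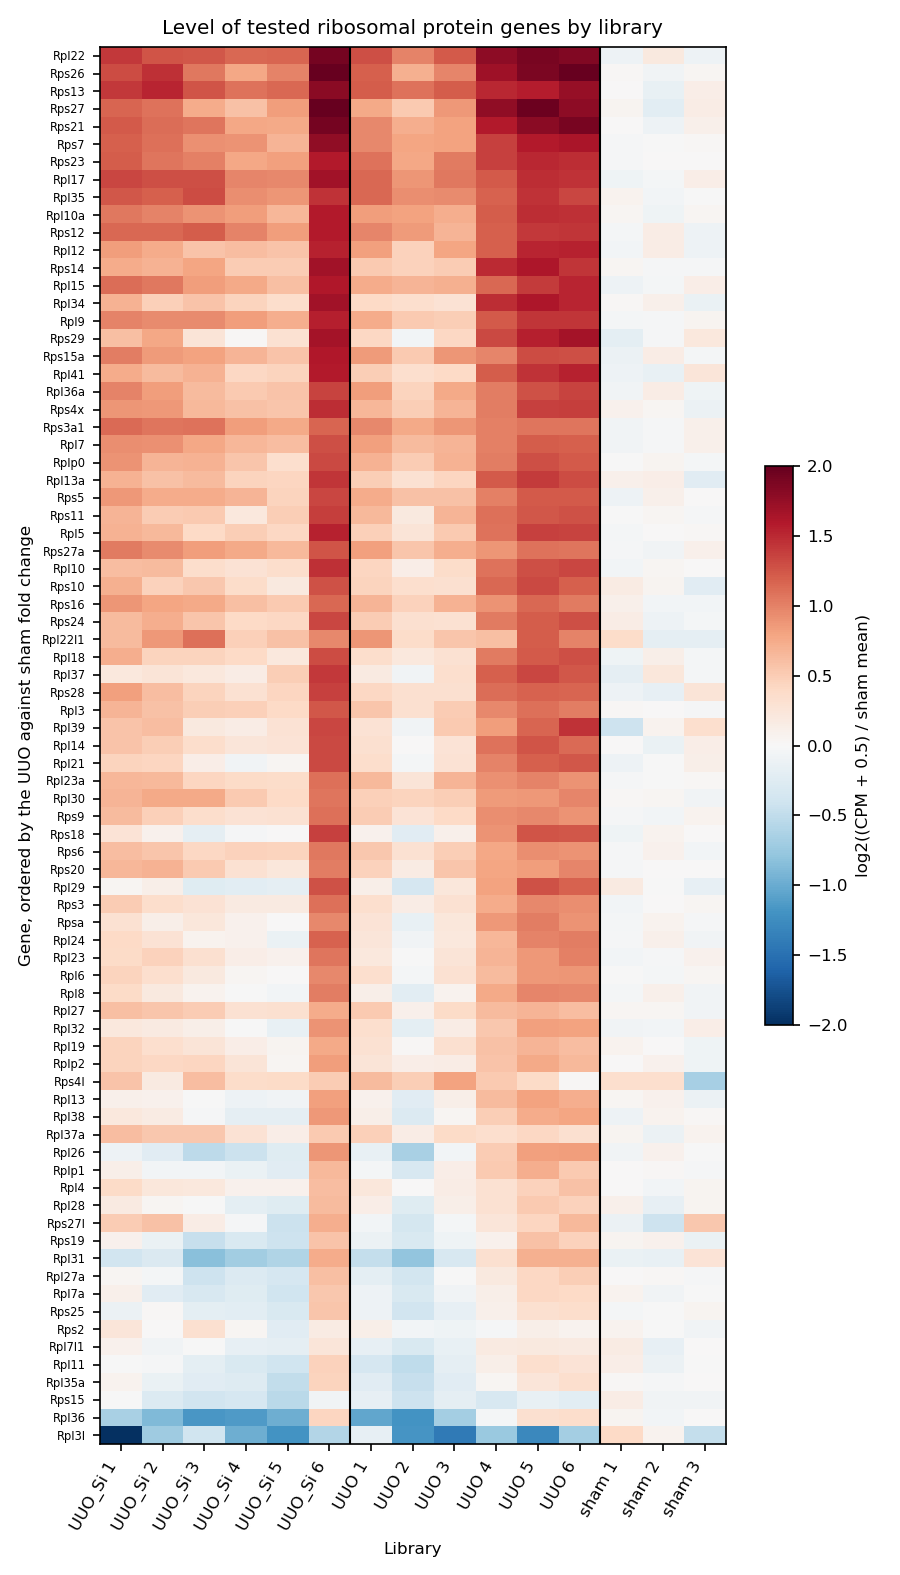
Level of 79 of the 82 tested ribosomal protein genes in each library, as log2 of CPM plus 0.5 over the sham mean, with genes ordered by the UUO against sham change. UUO_Si 6 and UUO 4 to 6 are the columns that stand highest, and Rpl36 and Rpl31 lie below the sham mean in the other obstructed libraries.

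Markers of several, but not all, kidney cell types changed in 1 direction in the same comparison. The summed level of 11 proximal tubule markers was 563 to 1756 CPM in UUO_Si, 755 to 1599 CPM in UUO and 16808 to 18947 CPM in sham. That of 6 fibroblast markers was 4326 to 6312 CPM in UUO_Si, 5183 to 10087 CPM in UUO and 261 to 404 CPM in sham. That of 8 macrophage markers was 868 to 1353 CPM in UUO_Si, 946 to 1232 CPM in UUO and 133 to 189 CPM in sham. In UUO_Si against UUO all 6 fibroblast markers were below 0, with a median log2 fold change of -0.55, and 0 were called. In UUO against sham all 11 proximal tubule markers fell, and all 6 fibroblast and 8 macrophage markers rose. Of 6 endothelial markers 2 rose and 2 fell, and of 5 podocyte markers 1 rose and 2 fell. Of 6 markers of the loop and distal tubule 5 fell, and all 6 collecting duct markers fell. Of 7 lymphocyte markers 4 rose and 0 fell. Of all tested genes 27.5% were called higher and 26.4% lower. No marker of these lists was at 0 in a group. Their part in the change of the ribosomal protein genes was not tested.

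Tissue-restricted paralogues were low. Rpl3l, the form of Rpl3 used in striated muscle, had 0.254, 0.541 and 1.29 CPM in UUO (lowest, median and highest) and 2.15, 1.60 and 0.947 CPM in sham, and its log2 fold change of -1.35 ± 0.68 did not pass (adjusted p = 0.1023, edgeR). Rpl3 itself rose by 0.77 ± 0.20 (adjusted p = 0.003086). Rpl10l and Rpl39l, used in male germ cells, had 23 and 7 counts over all 15 libraries and were not tested. All of those counts were in sham 3, UUO 5, UUO 6 and UUO_Si 6, the libraries with counts in most olfactory receptor genes.

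The counts of Rpl7l1 were 12.1% ± 0.866 of those of Rpl7 in UUO_Si, 11.6% ± 0.737 in UUO and 22.3% ± 3.28 in sham (SD, n = 6, 6 and 3). Rpl7 rose (0.94 ± 0.16, adjusted p = 8.619e-05, edgeR), and Rpl7l1 was at 54.4 ± 8.18 CPM in UUO and 54.6 ± 6.09 CPM in sham. Rps27l, a p53 target, stood at 47.7% ± 11.3 of the counts of Rps27 in UUO_Si, 38.0% ± 8.05 in UUO and 84.9% ± 22.3 in sham. In both pairs all 6 UUO ratios lay below the 3 sham ratios, with an exact permutation p of 0.0238, the smallest that 6 against 3 allows in a two-sided test, and an adjusted p of 0.0714 over the 12 ratio comparisons. No ratio comparison passed after adjustment.

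Rpl22l1 rose (0.81 ± 0.23, adjusted p = 0.006638, edgeR), with 7.70, 10.2 and 14.3 CPM in UUO (lowest, median and highest) and 7.74, 5.11 and 5.11 CPM in sham, so that the groups touched. Its call was lost without the 4 receptor-count libraries (adjusted p = 0.08395). Rps4l was at 17.6 ± 3.19 CPM in UUO and 13.0 ± 4.70 CPM in sham and did not pass, while Rps4x rose by 0.98 ± 0.23 (adjusted p = 0.001508). Levels were also taken per kilobase of the shortest protein-coding transcript. For Rps4l, typed as a pseudogene, the length was that of its annotated transcript. The highest members over all libraries included Rplp2 (702 CPM per kb), Rpl23a (694), Rplp1 (525) and Rps24 (516). The lowest were Rpl39l (0.0961), Rpl10l (0.164), Rpl3l (0.765), Rpl22l1 (18.3) and Rps4l (20.8).

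Among the snoRNA genes inside the members none rose in UUO against sham. GENCODE places 58 snoRNAs inside 30 members, and 33 of them were in the count table. Of the 23 tested, 0 rose and 13 (56.5%) fell in UUO against sham, against 27.5% and 26.4% of all genes, with a median log2 fold change of -0.86. Their 17 host genes had a median of 0.75. Box H/ACA snoRNAs (Snora) guide pseudouridylation and box C/D snoRNAs (Snord) guide methylation of ribosomal RNA.

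Snora21, inside Rpl23, had 22.8, 28.2 and 32.2 CPM in UUO (lowest, median and highest) and 70.4, 58.2 and 73.9 CPM in sham. No UUO library reached a sham library, and the log2 fold change was -1.29 ± 0.14 (adjusted p = 5.806e-07, edgeR), against 0.55 for Rpl23, which did not pass. Snora7a, inside Rpl32, changed by -1.07 ± 0.21 (adjusted p = 0.0003635), Snord33, inside Rpl13a, by -0.93 ± 0.24 (adjusted p = 0.003234), and Snora64, inside Rps2, by -2.14 ± 0.47 (adjusted p = 0.0009023, edgeR). Snord15a, inside Rps3, did not pass (-0.08 ± 0.22, adjusted p = 0.7857). Most snoRNAs were low, with means under 10 CPM in both groups for all but Snora21, Snord15a and Snord15b. Short RNAs and reads of unspliced host RNA were not told apart in the table. Without the 4 low-Malat1 libraries 8 of 22 fell and 0 rose, with a median of -0.93, while 25.3% of all tested genes fell and 27.5% rose. With replicate number as a block in the fit 7 of 23 fell and 0 rose, with a median of -0.785. In that fit 4081 of 16752 tested genes were called lower and 4352 higher. Without the 4 receptor-count libraries 10 of 24 fell and 0 rose, with a median of -0.79. There 4450 of 16294 tested genes were called lower and 4904 higher.

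**Figure D5:**
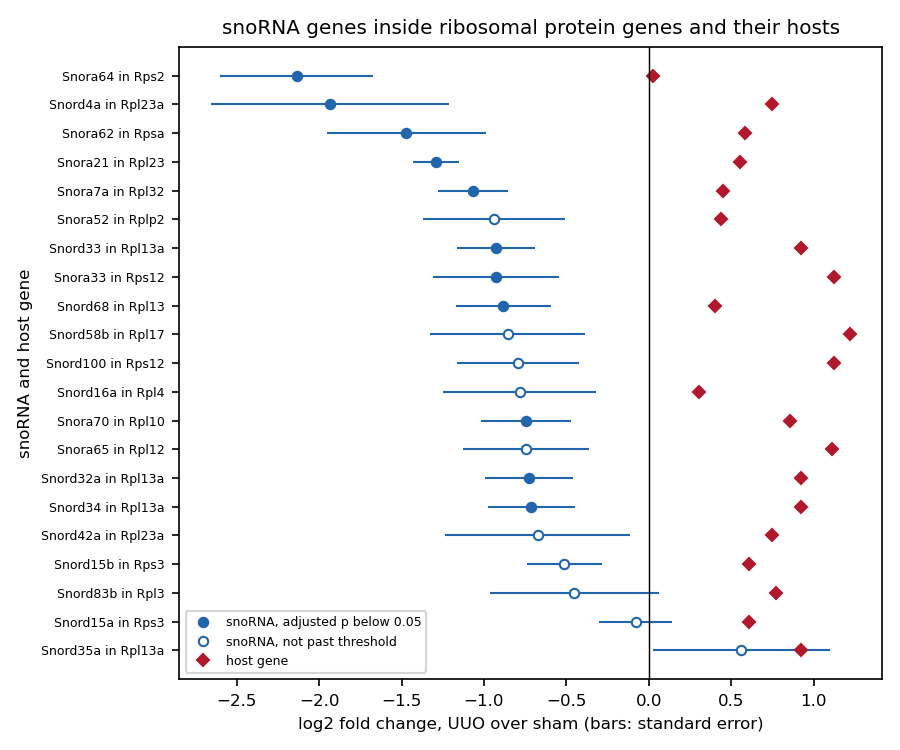
Log2 fold change of UUO over sham for 21 of the 23 tested snoRNA genes inside ribosomal protein genes (circles, bars are standard errors, filled where the adjusted p was below 0.05) and for the host gene (diamonds). The snoRNAs lie below 0 apart from Snord35a, and the hosts lie above 0.

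The second comparison, UUO_Si against UUO, asks what the Si-based diet did in obstructed kidney. Of the 82 tested members 0 were called higher and 0 lower by edgeR, against a background of 0.0% in either direction among all tested genes. DESeq2 and limma-voom also called 0 members. Over all tested genes DESeq2 called 0 higher and 2 lower, and limma-voom called 0 in either direction. At an unadjusted p below 0.05 edgeR passed 0 members, and DESeq2 and limma-voom passed 0 as well. Of 16752 tested genes, 626 (3.74%) passed in edgeR, 686 in DESeq2 and 1389 in limma-voom. The median log2 fold change was -0.13 over the members, with 72 of 82 below 0 against 49.7% of all tested genes, and 0.00 over all tested genes.

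The members with the smallest p included Rpl29, Rpsa, Rplp1, Rpl26, Rpl12, Rpl31, Rpl13 and Rpl36, and none passed. Rpl29, a protein of the large subunit, had 155, 176 and 442 CPM in UUO_Si (lowest, median and highest) and 146, 269 and 444 CPM in UUO. The groups overlapped, with a log2 fold change of -0.41 ± 0.29, a 95% interval of -0.98 to 0.15 and an adjusted p of 0.9994 (edgeR). Rpl36 had 53.3, 62.7 and 162 CPM in UUO_Si and 52.2, 95.7 and 153 CPM in UUO, with an interval of -0.95 to 0.24. In both genes UUO_Si 6 was far above the other UUO_Si libraries.

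In the members with the largest rises after obstruction, no difference between the diets passed the test. Rpl22 averaged 207 ± 47.2 CPM in UUO_Si kidneys and 232 ± 59.5 CPM in UUO kidneys, with an interval of -0.49 to 0.16 for the log2 fold change. Rps13 averaged 72.4 ± 13.9 CPM in UUO_Si kidneys and 73.1 ± 13.2 CPM in UUO kidneys, with an interval of -0.27 to 0.25. Rps26 averaged 177 ± 58.9 CPM in UUO_Si kidneys and 199 ± 69.3 CPM in UUO kidneys (SD, n = 6 each), with an interval of -0.60 to 0.27. These intervals do not show that the levels were equal.

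The direction of the median rested on few libraries. UUO_Si 6 held the highest level of its group in 76 of 82 members. Without it the median was -0.28, and 30 of 82 members had an unadjusted p below 0.05 (edgeR), against 1189 of 16510 tested genes. No member passed after adjustment, the lowest adjusted p being 0.6399 (edgeR). Without UUO 4 to 6 and UUO_Si 6 the median was 0.09, with 63 members above 0 and 0 called. In the fit with all libraries 50.3% of all tested genes were above 0. Without UUO 5 alone the median was -0.07, and without UUO 6 alone it was -0.06. Between the RM4 libraries of UUO_Si and the RM3 libraries of UUO alone, the median was -0.09 and 0 members were called.

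The third comparison, UUO_Si against sham, shares its sham libraries with the first. Of 82 members 41 rose and 0 fell, against 27.2% of all genes called higher and 25.5% called lower, with a median of 0.62. The rises covered 21 of 33 members of the 40S and 20 of 49 of the 60S subunit. In 48 members all UUO_Si libraries lay above all sham libraries, against 24.0% of all tested genes. Rps13 was highest at 1.41 ± 0.18 (adjusted p = 4.253e-06), with 58.4, 69.9 and 96.0 CPM in UUO_Si (lowest, median and highest) and the sham values given above. Among the others, Rpl22 was at 1.38 ± 0.22 (adjusted p = 4.76e-05), Rps26 at 1.33 ± 0.30 (adjusted p = 0.001131), Rpl17 at 1.28 ± 0.16 (adjusted p = 4.552e-06), Rps21 at 1.21 ± 0.30 (adjusted p = 0.00255), Rpl35 at 1.185 ± 0.14 (adjusted p = 2.229e-06), Rps27 at 1.18 ± 0.38 (adjusted p = 0.01379) and Rps12 at 1.17 ± 0.18 (adjusted p = 3.572e-05, edgeR). Rps15 did not pass (-0.26 ± 0.11, adjusted p = 0.05531), and neither did Rpl36 (-0.61 ± 0.37, adjusted p = 0.175).

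Without the 4 low-Malat1 libraries 50 members rose and 5 (Rpl26, Rpl31, Rpl36 and Rps15 among them) were called lower, with a median of 0.45, against 29.5% and 28.6% of all tested genes. The rises then covered 23 of 33 members of the 40S and 27 of 49 of the 60S subunit, and in 48 members UUO_Si 1 to 5 lay above all sham libraries, against 27.2% of all tested genes. Without UUO_Si 6 alone, 34 rose and 3 (Rpl36 and Rps15 among them) were called lower, with the same median of 0.45. In that fit 4536 of 16510 tested genes were called higher and 4264 lower. Of the 23 snoRNAs inside members, 0 rose and 5 (21.7%) fell in UUO_Si against sham, with a median of -0.55, and that share of falls was below the 25.5% of all tested genes. Without the 4 low-Malat1 libraries 1 of 22 rose and 5 fell. In UUO_Si against UUO 0 of the 23 were called.

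Other genes of protein synthesis are set beside the 27.5% of all tested genes that were called higher and the 26.4% called lower in UUO against sham. Of 18 further mRNAs known to carry a TOP motif, 13 (72.2%) rose and 0 fell, with a median of 0.66. Npm1, a nucleolar chaperone, was at 340 ± 42.6 CPM in UUO and 138 ± 18.3 CPM in sham (1.30 ± 0.14, adjusted p = 5.648e-07). Pabpc1, the poly(A)-binding protein, was at 702 ± 110 CPM in UUO and 294 ± 15.4 CPM in sham (1.26 ± 0.15, adjusted p = 1.557e-06, edgeR). Fau, whose product releases a ribosomal protein from a ubiquitin-like fusion, rose (0.54 ± 0.20, adjusted p = 0.0272, edgeR). Of 10 elongation and termination factors 5 (50%) rose and 0 fell, with Eef1b2 among the rises (1.01 ± 0.17, adjusted p = 9.15e-05, edgeR). Of 36 initiation factors 14 (38.9%) rose and 5 (13.9%) fell. The lists share genes and are not independent. Eef1b2 and the initiation factors Eif3e and Eif3f are also among the TOP mRNAs, and Npm1 is also in the ribosome assembly list below.

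Of 77 tested genes of the mitochondrial ribosome, 1 (1.3%) rose and 40 (51.9%) fell in UUO against sham, with a median of -0.40. Mrpl38 was at 28.9 ± 2.13 CPM in UUO and 74.8 ± 5.31 CPM in sham (-1.37 ± 0.12, adjusted p = 7.474e-08, edgeR). Among 18 genes of mTOR signalling and TOP control 2 (11.1%) rose and 8 (44.4%) fell, and Mtor itself fell (-1.49 ± 0.11, adjusted p = 7.897e-09). In the same list Myc rose (1.29 ± 0.15, adjusted p = 1.014e-06, edgeR). Of 12 genes of the p53 response 7 (58.3%) rose and 2 (16.7%) fell, led by Pmaip1 (2.81 ± 0.20, adjusted p = 4.202e-09, edgeR).

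Further lists are set beside the same shares of all tested genes, 27.5% called higher and 26.4% called lower. Of 50 ribosome assembly genes 6 (12%) rose and 12 (24.0%) fell. Of 14 RNA polymerase I genes 3 (21.4%) rose and 5 (35.7%) fell, and of 12 host genes of other snoRNAs 3 (25.0%) rose and 2 (16.7%) fell. In UUO_Si against UUO, 0 genes of any of these lists were called by edgeR.

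Without the 4 low-Malat1 libraries 27.5% of all tested genes were called higher and 25.3% lower in UUO against sham. In that fit the 77 mitochondrial genes had 1 rise and 44 falls, and the 18 further TOP mRNAs 11 rises and 1 fall. The 10 elongation and termination factors had 4 rises and 0 falls, and the 36 initiation factors 7 rises and 5 falls. The 50 assembly genes had 4 rises and 15 falls, and the 14 polymerase I genes 3 rises and 4 falls. The 18 genes of the mTOR list had 3 rises and 6 falls. The 12 genes of the p53 list had 7 rises and 2 falls, and the 12 snoRNA hosts 3 rises and 2 falls.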

How the data were processed

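Kidney RNA was extracted by RNeasy from RNAlater-stored tissue, and sequencing libraries came from the SMARTer stranded Pico kit, per the labels' protocols. The authors deposited unnormalised expected counts per gene symbol for 15 libraries: their totals differed between libraries, whole numbers made up 79.04% to 83.0% of each column, and 29.0% of the ribosomal protein values were fractional. TopHat2 2.1.1, Cuffdiff 2.2.1 and mm10 are named per the submitters' processing notes; the counter, annotation and strand setting were not given in the sources used, so reads shared with pseudogenes, retrogenes and overlapping genes cannot be told apart.

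The expected counts were rounded and tested in edgeR 4.0.16 under R 4.3.3 (filterByExpr with a minimum count of 10, TMM, robust quasi-likelihood, 1 fit over all 15 libraries, Benjamini-Hochberg at 0.05). SE was derived as the size of the log2 change divided by root F, and 95% intervals are 1.96 SE either side. Named are the 10 largest calls per comparison (or the 10 smallest p) and the 5S, stalk and paralogue genes. Also named are the highest and lowest members per length and up to 4 genes of other lists. Further genes, named as rising or as not rising, were chosen outside this rule after their values were seen. Members and lists were chosen with earlier results of these data known. GENCODE M21 gave positions and lengths, and RefSeq (GRCm38.p6) gave start windows. Alternatives used DESeq2 1.42.0, limma 3.58.1, other scalings, filters and left-out libraries. The fit was tested on simulated data. No libraries were copies of each other. Values of a few genes are not reported here.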

Additional observations from a re-analysis of the deposited data

Results flagged for a closer look

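UUO_Si 6 stood far above the other UUO_Si libraries. The gap to the next library, divided by the range of the group, was compared with Dixon's 95% critical value for 6 libraries, which chance passes in about 1 of 20 groups. Of 80 checks over the ribosomal protein and Malat1 shares, the median level and the named members, 24 passed it, and in 23 of these the highest value was that of UUO_Si 6. The members share that library, so the checks are not independent. The share of counts was 2.59% there and 1.71% in the next library (gap 0.715 of the range), and the median log2 level was 8.01 and 7.34 (gap 0.667).

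The same library led in Rpl22 (0.711), Rps27 (0.708), Rps21 (0.691), Rpl10a (0.653), Rpl29 (0.849), Rpsa (0.766), Rplp1 (0.681), Rpl26 (0.791), Rpl12 (0.781), Rpl31 (0.769), Rpl13 (0.823), Rpl36 (0.784), Rpl5 (0.812), Rpl3 (0.722), Rpl10 (0.783), Rpl39 (0.706), Rps4x (0.709), Rpl23a (0.643) and Rps24 (0.726). In Rpl10l and Rpl39l the gap was 1.0, since UUO_Si 6 alone of its group held counts, at 0.333 and 0.0833 CPM. In UUO, Rpl39l also had a gap of 1.0, with counts in UUO 6 alone at 0.331 CPM. UUO_Si 6 had a Malat1 share of 1.55%, against 4.796% to 7.81% in the other UUO_Si libraries, and its part in these gaps was not tested.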

How the results depend on the processing

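In UUO against sham, 40 to 60 members rose in all alternatives run, and the median change stayed between 0.35 and 0.87. With each library left out in turn, 42 to 60 rose, 0 to 1 were called lower and the median was 0.68 to 0.87, and 39 of the 51 calls were kept in all 15 fits. Without UUO 1 Rps15 was called lower, and without UUO_Si 1 Rpl3l was. In UUO_Si against sham the same fits gave 30 to 46 rises, 0 to 3 falls and a median of 0.45 to 0.67. In UUO_Si against UUO they gave 0 calls and a median of -0.28 to -0.06. The number called lower was 0 in both sham comparisons but became 1 with TMM computed without the ribosomal protein genes, 1 with a minimum count of 50, and 2 (UUO) or 4 (UUO_Si) with limma-voom. It became 1 (UUO) or 4 (UUO_Si) without the 4 receptor-count libraries, and 5 in both without the 4 low-Malat1 libraries, where the UUO median was 0.35. The cause was not tested. Without a filter on low counts 84 members were tested, and 51 (UUO) and 41 (UUO_Si) rose against sham.

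Replicate numbers are shared between groups, but the correlations of same-numbered libraries ran from -0.39 to 0.75, so the numbers were not taken to pair samples. With a replicate block 40 members rose and 1 (Rpl36) was called lower in UUO against sham (median 0.52). There 4352 of 16752 tested genes were called higher and 4081 lower. In UUO_Si against sham 30 members rose and 2 (Rpl36 among them) were called lower (median 0.37), with 4301 of all tested genes higher and 3967 lower. In UUO_Si against UUO 0 members were called (median -0.13). Rplp2, Rpl10, Rpl5, Rps24, Rps27 and Rpl22l1 each lost a call in at least 1 alternative. Depth limits Rpl3l, Rpl10l and Rpl39l, and reads with no molecular identifiers are not independent molecules.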
